A study of Homo sapiens with 8 samples.

Results

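The 10 genes described here, EPCAM, VIL1, CDH17, LGALS4, FABP1, CA2, GPA33, MUC1, MUC2 and MUC13, are markers of differentiated colonic epithelium, and they were examined for H3K27ac peaks in HCEC-1CT cells. They were listed by name and not ranked by a measured value, but earlier results of these data were known when they were chosen. They make up 10 of the 19663 protein-coding genes with a coding transcript start in GENCODE release 44. For each gene, peaks overlapping the gene body or the 20 kb on either side were taken (hg38, 805.4 kb in all). The WT lists, of 86163 to 93567 peaks, had 26 to 28 in these windows. Those of the CREBBP-KO libraries, of 99008 to 111697 peaks, had 33 to 37. H3K27ac is the acetylation of lysine 27 of histone H3, a mark of active promoters and enhancers that is measured here by chromatin immunoprecipitation and sequencing (ChIP-seq).

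HCEC-1CT is a karyotypically normal line of human colonic epithelial cells (HCECs), immortalized with CDK4 and hTERT and grown here with calf serum, EGF, insulin, transferrin, selenite and hydrocortisone. The study compared parental cells (WT, 3 libraries) with cells lacking CREBBP, also known as CBP, an enzyme that acetylates H3K27 (CREBBP-KO, 3 libraries), to ask how chromatin responds to the loss of one such enzyme. The methods state that the parental cells were a clone carrying a doxycycline-inducible Cas9, so both genotypes share this transgene. For the knockout, Cas9 was induced with doxycycline, guide RNAs were transfected and single cells were sorted. The methods call the CREBBP-KO cells monoclonal in this experiment, whereas clones, and matched parental subclones, are elsewhere said to be pooled. If the CREBBP-KO cells were monoclonal, a difference between genotypes cannot be told apart from one between clones. The labels number the libraries 1 to 3 in each genotype without saying whether these were separate cultures, so p-values measure only the spread between these libraries. The lists hold no readout of the CREBBP lesion itself.

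In the colon, absorptive colonocytes and mucus-secreting goblet cells arise from stem cells at the crypt base, and both switch on their marker genes as they move up the crypt. CDX2, HNF4A and GATA factors are known activators of such genes in the intestine.

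Each peak has a fold, the height of its summit over the local background of its library. Because fold depends on the library, it was compared as a percentile within its own list, where 0 is the weakest and 100 the strongest peak. A percentile is relative to the other peaks of the same list, so a higher one need not mean more acetylation. In CREBBP-KO cells the paper reports a moderate H3K27ac decrease of borderline significance by mass spectrometry, and a significant but small one by immunofluorescence. From its ChIP-seq reads the paper reports that nearly all H3K27ac peaks were unaffected, and that the few that differed were mostly weak. That call required a minimum fold change and a stricter false discovery rate than the rank comparison below, so the shares given below are not comparable with it. A locus without a peak is one where no peak passed a q-value of 0.05 in that list. Read numbers are not part of the lists, so the depth behind each list is unknown and no counting error can be given, and a missing peak does not show that the mark is absent.

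Of the 10 windows, 8 held peaks in every library and 2, those of FABP1 and CA2, held none in any of the 6 libraries. Over all protein-coding genes, 13.9% of such windows were empty (2776 of 20007). Near the starts of the genes the marks were sparser. A peak within 1 kb of a protein-coding transcript start was present in 6 of 6 libraries for 3 of the 10 genes (EPCAM, MUC1 and MUC2), in some libraries for 2 (LGALS4 and GPA33) and in none for 5 (VIL1, CDH17, FABP1, CA2 and MUC13). Over all protein-coding genes 61.8% had a promoter peak in 6 of 6 libraries and 32.2% had none in any. When a fold of at least 5 was required, MUC1 was left alone with a promoter peak in every library and 8 genes had none.

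**Figure D1:**
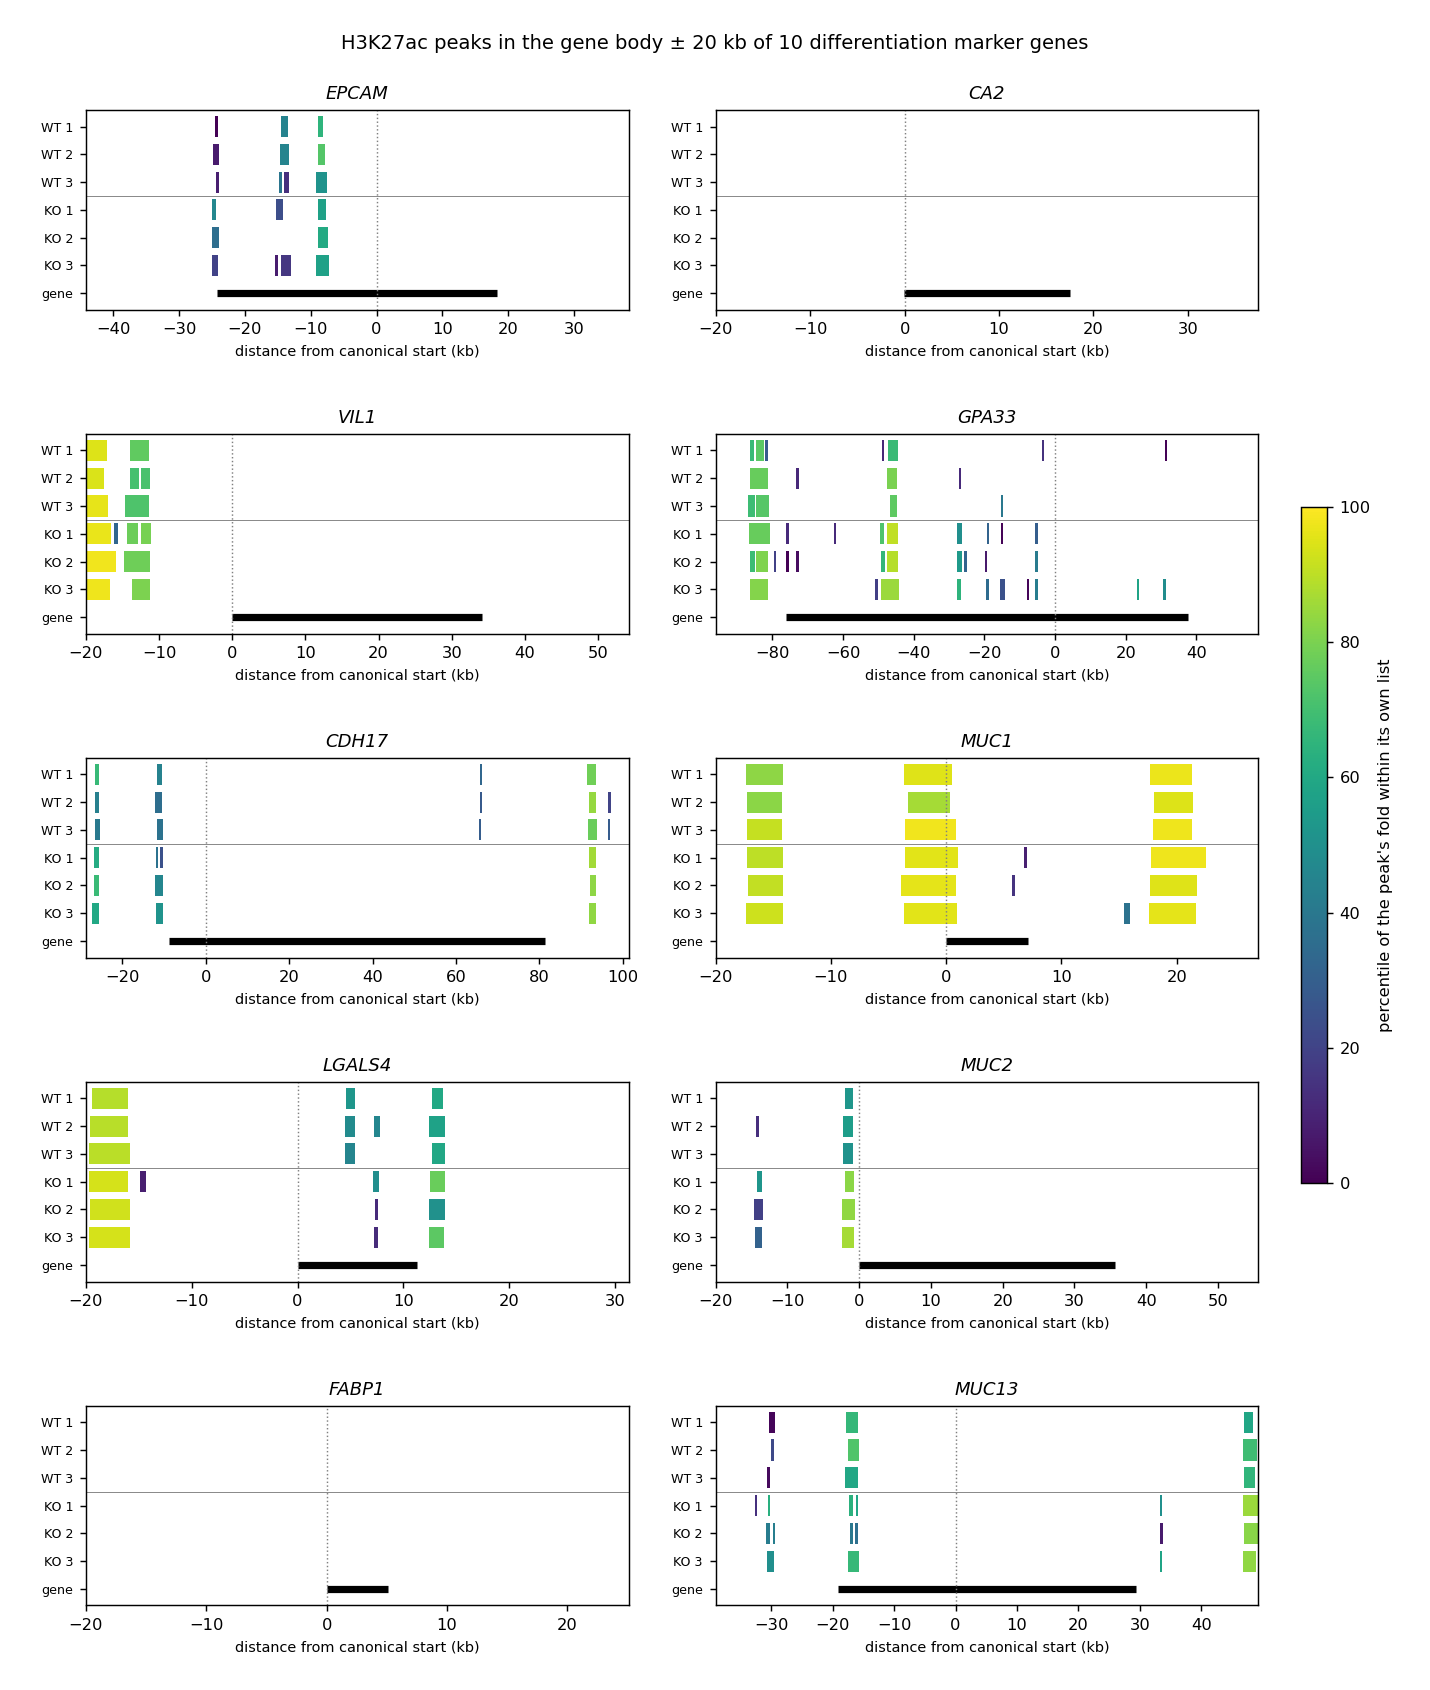
Peaks of the 6 libraries in the window of each gene, drawn against the distance in kb from the Ensembl canonical start in the direction of transcription, with the gene body as a black bar and the percentile of each peak as colour. One interval of the EPCAM window is not drawn. FABP1 and CA2 have no peak in any of the 6 libraries, MUC1 has broad peaks over its start, and the GPA33 window holds 9 to 11 peaks in CREBBP-KO against 4 to 7 in WT.

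The promoter sequences below show the DNA at a strongly marked start (MUC1) and at a start with a peak nearby (MUC2). They also show the canonical start of LGALS4, which had no peak itself, and the start of a gene with no peak in its window (FABP1). Each is the 250 bases before the start in RefSeq (GRCh38.p14), read 5′ to 3′ on the strand of the gene. Capitals mark matches, on either strand, to 7 motifs: an AP-1 site (TGANTCA), a cyclic AMP response element (TGACGTCA), a CDX site (TTTATG), then the GATA site (AGATAA), an HNF4 site (CAAAGTCCA), then the TATA box (TATAAA) and a GC box (GGGCGG). N stands for any base. None of these motifs contains another.
MUC1, chr1:155192916-155193165, minus strand: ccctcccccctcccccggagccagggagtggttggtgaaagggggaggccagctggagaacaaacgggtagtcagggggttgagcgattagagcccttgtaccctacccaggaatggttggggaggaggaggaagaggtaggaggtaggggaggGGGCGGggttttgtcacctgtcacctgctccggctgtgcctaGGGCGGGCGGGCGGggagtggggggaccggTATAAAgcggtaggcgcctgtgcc
MUC2, chr11:1074624-1074873, plus strand: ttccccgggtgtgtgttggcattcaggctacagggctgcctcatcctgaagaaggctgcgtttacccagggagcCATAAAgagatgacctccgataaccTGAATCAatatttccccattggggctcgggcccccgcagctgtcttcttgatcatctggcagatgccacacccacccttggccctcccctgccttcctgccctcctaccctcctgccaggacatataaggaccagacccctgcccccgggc
LGALS4, chr19:38812946-38813195, minus strand: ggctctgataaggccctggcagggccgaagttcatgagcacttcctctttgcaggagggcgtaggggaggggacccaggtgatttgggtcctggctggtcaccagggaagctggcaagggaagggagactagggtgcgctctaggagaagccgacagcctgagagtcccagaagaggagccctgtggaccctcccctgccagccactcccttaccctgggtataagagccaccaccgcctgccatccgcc
FABP1, chr2:88128063-88128312, minus strand: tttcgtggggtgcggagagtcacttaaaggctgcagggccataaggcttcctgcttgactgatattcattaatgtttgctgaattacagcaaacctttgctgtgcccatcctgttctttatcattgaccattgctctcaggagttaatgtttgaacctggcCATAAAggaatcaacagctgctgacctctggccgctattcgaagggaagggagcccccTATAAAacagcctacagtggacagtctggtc

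The MUC1 promoter held 4 GC boxes, a motif present in 42.6% of the 35116 RefSeq promoters of the same length, and a TATA box, present in 10.7%. Its GC content was 66%, against a median of 58% over all promoters. The MUC2 promoter held a CDX site (9.64% of all promoters) and a match to the AP-1 pattern (6.57%). That match was TGAATCA, with A at the open base, and the share counts any base there. FABP1 held a CDX site and a TATA box, at a GC content of 48%. None of the 7 motifs was found in the LGALS4 promoter or in that of GPA33. The MUC13 promoter, which had no peak, held the HNF4 letters, found in 0.325% of all promoters, beside an AP-1 site and a cyclic AMP response element (1.65%). Promoter entries were found for 6 of the 10 genes; EPCAM, VIL1, CDH17 and CA2 had none. A match is a description of the letters and not evidence that a factor binds.

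MUC1 (ENSG00000185499.17, chr1:155185824-155192916), a cell-surface mucin of many simple epithelia, was the only one of the 10 genes with a promoter peak above a fold of 5 in every library. Its promoter peak stood at percentiles 95.0, 86.55 and 97.8 in the WT lists (folds 16.2, 10.8 and 19.8). In the CREBBP-KO lists it stood at 95.7, 95.8 and 95.7 (folds 17.2, 18.5 and 19.0). The WT libraries spread more widely than the CREBBP-KO libraries and enclosed them. The means were 93.1 ± 5.84 (SD, n = 3) and 95.7 ± 0.0665 (SD, n = 3), and did not differ beyond this spread (two-sided exact permutation test, p = 0.7). The merged interval (chr1:155191856-155196851) covers the canonical start, with its median summit 1.13 kb upstream, and its rank shift was 0.11 ± 0.21 (SE), with an adjusted p of 0.722 by limma. For such shifts, peaks that overlapped between lists were merged into intervals, ranked in each library and put on a normal scale, so that a shift of 1 is a change of 1 SD of all intervals.

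MUC2 (ENSG00000198788.9, chr11:1074875-1110511) encodes the gel-forming mucin of the colonic mucus layer and is the classical goblet cell marker. Its one peak present in every library lay upstream of the start (chr11:1072513-1074290), with its summit 1.25 kb away and its edge inside the promoter window. The percentiles were 52.4, 55.4 and 51.1 in the WT lists and 82.45, 83.5 and 86.4 in the CREBBP-KO lists. The folds behind them were 4.45, 4.76 and 4.54 in WT and 8.72, 9.83 and 11.6 in CREBBP-KO. All 3 CREBBP-KO libraries were higher than all 3 WT libraries, with means of 52.95 ± 2.23 and 84.1 ± 2.06 (SD, n = 3 each; exact permutation test, p = 0.1, the smallest that 3 against 3 libraries allow). The rank shift was 1.63 ± 0.26 (SE), with an adjusted p of 8.979e-05 by limma with Benjamini-Hochberg adjustment over 34864 intervals. The interval passed the filter of a fold of at least 5 through the CREBBP-KO libraries alone, since all 3 WT folds were below 5, so that its difference decided that it was tested. Without the fold filter its shift was 1.11 ± 0.19 (SE), with an adjusted p of 0.000227 by limma over 52187 intervals. At a second MUC2 interval, 14.2 kb upstream, each CREBBP-KO library had a peak (percentiles 52.0, 18.9 and 31.0), as did WT 2 alone among the WT libraries (13.35). No peak lay within the MUC2 gene body.

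Many promoters differed in rank in the same direction. Among the 12142 promoters with a peak in all 6 libraries, 45.0% were higher in every CREBBP-KO library than in any WT library and 7.71% were lower, and the median difference was 3.26 percentile points. With lists cut to the same number of peaks 33.6% were higher and 11.3% lower, and the median was 2.08 points. Ranked by −log10 p, 33.8% were higher and 5.87% lower. The MUC2 difference was 31.2 points with the full lists, 30.1 with lists of equal length and 17.95 with peaks ranked by −log10 p. Of the 3 genes here with a promoter peak in all libraries, 2 (MUC2 and EPCAM) were higher in CREBBP-KO without overlap and 0 were lower.

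EPCAM (ENSG00000119888.11, chr2:47345158-47387601), an epithelial cell adhesion molecule made throughout the intestinal epithelium, had no peak within 1 kb of its canonical start in any library. Its promoter peak lay 24.4 kb upstream (chr2:47344311-47345439), at the start of a longer annotated coding transcript, and its summit lay in an exon of the divergent gene EPCAM-DT. This was among the weakest peaks of the WT lists, at percentiles 0.175, 7.27 and 8.36. In the CREBBP-KO lists it stood at 46.1, 35.55 and 19.7. The genotypes did not overlap (5.27 ± 4.45 and 33.8 ± 13.3, SD, n = 3 each; exact permutation test, p = 0.1). The folds were 2.09, 2.598 and 2.72 in WT and 3.86, 3.47 and 2.93 in CREBBP-KO, so the interval failed the fold filter. Without that filter its shift of 1.09 ± 0.54 (SE) had an adjusted p of 0.147 by limma. With lists of equal length this peak was no longer present in all libraries.

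Further EPCAM peaks lay in the intron between the 2 starts. The interval 8.503 kb upstream of the canonical start (chr2:47360122-47362121) had percentiles of 65.1, 73.3 and 51.5 in WT and 57.2, 60.6 and 57.3 in CREBBP-KO, which overlap. The interval 14.1 kb upstream was present in 3 WT libraries (44.6, 45.0 and 38.9) and in 2 CREBBP-KO libraries (23.75 and 15.8).

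**Figure D2:**
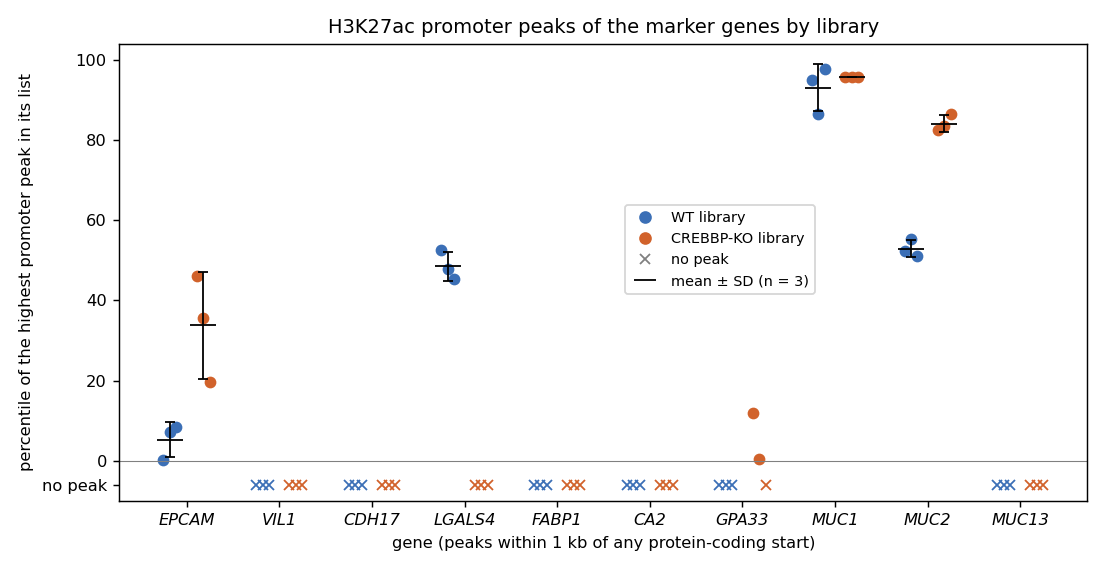
Percentile, within its own list, of the highest peak within 1 kb of any protein-coding start of each gene, by library, with crosses for libraries without such a peak and bars for the mean ± SD of 3 libraries where all 3 had one. MUC1 lies above 86 in every library, MUC2 lies between 51.1 and 55.4 in the WT libraries and between 82.45 and 86.4 in the CREBBP-KO libraries, and 5 genes have crosses only.

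LGALS4 (ENSG00000171747.9, chr19:38801671-38812945) encodes galectin-4, a lectin of the colonocyte that takes part in apical protein delivery. Its canonical start had no peak. An intronic interval 4.87 kb downstream of that start, close to an internal coding start, was found in all 3 WT libraries at percentiles 52.5, 47.9 and 45.3 and in 0 of 3 CREBBP-KO libraries. The WT peaks had a −log10 q of 8.49, 7.87 and 6.87, well above the limit of 1.3 of the lists. A neighbouring intronic interval 7.37 kb downstream showed the opposite pattern in presence, with a peak in WT 2 alone (45.9) and in all 3 CREBBP-KO libraries (48.9, 11.8 and 12.1). The interval 13.4 kb downstream, past the end of the gene, was present in all libraries and overlapped between genotypes (57.6 to 60.1 against 50.3 to 77.2). The strongest peak of the window, at 88.9 to 89.8 (WT) and 92.8 to 93.6 (CREBBP-KO), covered the promoter of ECH1, a gene of fatty acid oxidation.

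GPA33 (ENSG00000143167.12, chr1:167052836-167166479), the A33 antigen of the intestinal epithelial surface, had the largest difference in the number of peaks. Its window held 7, 4 and 4 peaks in the WT lists and 9, 11 and 10 in the CREBBP-KO lists, covering 8.24 ± 0.543 kb and 14.9 ± 1.73 kb (SD, n = 3 each). Neither the number nor the covered length overlapped between genotypes (exact permutation test, p = 0.1 for both). Several intervals were called in a single CREBBP-KO library, at percentiles from 1.36 to 58.0, and the one 3.65 kb upstream in WT 1 only (14.3). Intervals split into several peaks added to the counts in both genotypes. No peak lay at the canonical start. Weak peaks at the start of a longer transcript, 76.01 kb upstream, were found in CREBBP-KO 1 and 2 only (percentiles 11.9 and 0.313).

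The interval of the GPA33 locus with the highest mean percentile over the 6 libraries (chr1:167134475-167139935) lay 46.0 kb upstream of the canonical start, in an intron of the longer transcript. Its percentiles were 67.7, 79.7 and 75.2 in WT and 90.3, 88.7 and 85.1 in CREBBP-KO (folds 6.16, 8.65 and 7.80 against 12.45, 12.3 and 10.9). The genotypes did not overlap, and the shift was 0.75 ± 0.22 (SE) with an adjusted p of 0.0116 by limma. Without WT 1 or without CREBBP-KO 1 the adjusted p rose to 0.0647 and 0.0541. An interval 5.48 kb upstream (chr1:167095195-167096179), in introns of both GPA33 and the overlapping gene STYXL2, had a peak in 0 of 3 WT and 3 of 3 CREBBP-KO libraries, at percentiles 29.4, 41.1 and 42.05. It also lay within the promoter window of STYXL2, so the peak cannot be assigned to either gene. A further interval 26.9 kb upstream was called in each CREBBP-KO library (49.35, 54.1 and 64.6) and in WT 2 alone (11.7). The interval 84.0 kb upstream lay beyond the gene body. Its WT mean of 74.8 was above the WT mean of 74.2 of the interval 46.0 kb upstream. It ranged from 73.5 to 76.6 in WT and from 76.8 to 81.4 in CREBBP-KO (mean 79.6). The genotypes did not overlap there, but the shift of 0.09 ± 0.23 (SE) had an adjusted p of 0.775 by limma.

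The sequences below are the 300 bases around the summits of 2 intervals that the comparisons turn on, the MUC2 and GPA33 intervals that were higher in CREBBP-KO. They are given on the plus strand of hg38, with the same motifs in capitals, and neither overlaps an annotated exon.
MUC2 upstream interval, chr11:1073474-1073773: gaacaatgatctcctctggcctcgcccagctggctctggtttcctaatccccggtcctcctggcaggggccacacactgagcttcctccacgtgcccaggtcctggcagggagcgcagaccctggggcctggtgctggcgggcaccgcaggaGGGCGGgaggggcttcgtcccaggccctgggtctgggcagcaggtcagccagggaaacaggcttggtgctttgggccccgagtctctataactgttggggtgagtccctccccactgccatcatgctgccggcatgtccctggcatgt
GPA33 intronic interval, chr1:167136245-167136544: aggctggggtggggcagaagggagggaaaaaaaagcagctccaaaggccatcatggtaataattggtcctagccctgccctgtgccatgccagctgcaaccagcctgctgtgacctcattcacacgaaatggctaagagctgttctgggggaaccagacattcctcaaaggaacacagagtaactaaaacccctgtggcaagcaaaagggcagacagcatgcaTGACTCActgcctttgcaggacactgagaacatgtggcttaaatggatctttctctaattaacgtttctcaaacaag

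The MUC2 window was GC-rich (66%, against a median of 48% over 34847 tested intervals) and held a GC box, as did 22% of those intervals. The GPA33 window held an AP-1 site (10.1% of the intervals) at a GC content of 49.7%.

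MUC13 (ENSG00000173702.7, chr3:124905442-124953819), a transmembrane mucin of the enterocyte brush border, had no promoter peak, but its window held 3 peaks in each WT list and 6, 6 and 4 in the CREBBP-KO lists. The largest difference was at an intergenic interval 30.3 kb upstream (chr3:124964060-124965535), at percentiles 1.32, 22.0 and 2.59 in WT and 63.2, 42.3 and 49.4 in CREBBP-KO. Its folds were below 5, and without the fold filter its shift of 1.47 had an adjusted p of 0.0209 by limma. An interval within the gene, 16.2 kb upstream of the canonical start (chr3:124950457-124952786), overlapped between genotypes, with percentiles of 66.7, 72.5 and 59.5 in WT and 64.05, 39.9 and 66.8 in CREBBP-KO. Its shift of -0.76 ± 0.33 (SE) had an adjusted p of 0.0708 by limma. This interval passed the fold filter through the WT libraries alone, since its CREBBP-KO 2 fold was 3.61. Without the fold filter its shift was -0.53 ± 0.26 (SE), with an adjusted p of 0.140 by limma.

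At the other end of the MUC13 window the peaks lay at promoter windows of ITGB5, which encodes the integrin beta 5 subunit. The interval 47.9 kb downstream of the MUC13 start (chr3:124885371-124887960) overlapped a promoter window of ITGB5 and stood at 59.1, 68.9 and 65.3 in WT and 84.8, 82.3 and 83.3 in CREBBP-KO (shift 1.00 ± 0.25 SE, adjusted p = 0.00372 by limma). A second interval, 33.5 kb downstream and overlapping another ITGB5 promoter window, had a peak in 0 of 3 WT and 3 of 3 CREBBP-KO libraries, at 49.8, 7.24 and 58.3. Whether these differences concern MUC13 at all was not tested.

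The remaining colonocyte genes had no promoter peak in any library. VIL1 (ENSG00000127831.11, chr2:218419121-218453295) encodes villin, which bundles actin in the microvilli of the brush border. Its gene body was free of peaks in all 6 libraries. The window reached the broad interval over the promoter of CTDSP1, a phosphatase gene, at 94.5 to 96.3 (WT) and 96.6 to 97.85 (CREBBP-KO). An intergenic interval 12.2 kb upstream (chr2:218404302-218408070) stood at 75.7, 71.2 and 72.1 in WT and 79.5, 78.05 and 80.3 in CREBBP-KO. The genotypes did not overlap there, but the shift of 0.19 ± 0.23 (SE) had an adjusted p of 0.553 by limma.

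CDH17 (ENSG00000079112.10, chr8:94127162-94217303) encodes liver-intestine cadherin, an adhesion protein of the intestinal epithelium. Its window held 4, 5 and 5 peaks in WT and 4, 3 and 3 in CREBBP-KO, counts that overlap. An intronic interval 65.9 kb downstream of the canonical start (chr8:94142260-94143147) was present in all 3 WT libraries at percentiles 33.0, 28.0 and 29.15 and in 0 of 3 CREBBP-KO libraries. The intervals 11.6 kb and 25.8 kb upstream and 92.6 kb downstream were present in all 6 libraries and overlapped between genotypes. The strongest of them, beyond the 3′ end of the gene, ranged from 77.3 to 84.35 (WT) and from 83.0 to 86.2 (CREBBP-KO). With promoter windows of 2.5 kb the peak upstream of the longer CDH17 transcript was counted, and CDH17 joined the genes with a peak in every library.

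FABP1 (ENSG00000163586.10, chr2:88122982-88128062), the fatty acid binding protein of absorptive enterocytes and liver, and CA2 (ENSG00000104267.10, chr8:85463968-85481493), a carbonic anhydrase of surface colonocytes, were silent by this measure. Neither had a peak in the gene body or within 20 kb of it, in any WT or CREBBP-KO library.

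Over the 10 windows together, 27, 28 and 26 peaks were counted in WT 1 to 3, and 37, 34 and 33 in CREBBP-KO 1 to 3. The genotypes did not overlap (27 ± 1 and 34.7 ± 2.08, SD, n = 3 each; exact permutation test, p = 0.1). Since the CREBBP-KO lists were longer, the share of each list was compared as well, and it was 2.97 ± 0.0752 and 3.29 ± 0.0503 per 10000 peaks, again without overlap (p = 0.1, exact permutation test). With all lists cut to the same number of peaks the difference was 3.67 peaks and the genotypes overlapped (exact permutation test, p = 0.2). Peaks with a fold of at least 5 numbered 16, 14 and 14 in WT and 16, 15 and 15 in CREBBP-KO, which overlap (p = 0.6, exact permutation test). The surplus in the CREBBP-KO lists thus lay among peaks with a fold below 5. The windows of GPA33, MUC1 and MUC13 held more peaks in every CREBBP-KO library than in any WT library and none of the 10 held fewer. Over all genes the shares were 13.3% and 1.49%. The added MUC1 peak lay at a different place in each CREBBP-KO library (percentiles 8.72, 14.6 and 37.8). At MUC13 the covered length overlapped between genotypes (4.48 ± 0.0815 and 4.88 ± 0.488 kb, SD, n = 3 each, exact permutation test, p = 0.3).

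The peaks merged into 46 intervals, of which 19 had a peak in all 6 libraries and 13 in a single library. Peaks in CREBBP-KO libraries alone made up 16 intervals and peaks in WT libraries alone 4. Over all 143733 merged intervals these classes took up 28.3% and 15.4%. An interval present in 3 of 3 libraries of a genotype and 0 of 3 of the other was found 2 times for CREBBP-KO (at GPA33 and at ITGB5 beside MUC13) and 2 times for WT (at CDH17 and LGALS4). Over all merged intervals the shares of these stricter classes were 2.66% and 1.08%. In all, 10 of the 46 intervals overlapped a promoter window of another protein-coding gene, among them the strongest intervals of the VIL1 and LGALS4 windows and, by the mean percentile over the 6 libraries, those of the MUC1 and MUC13 windows. By the WT mean alone the intronic interval of MUC13 was higher (66.2 against 64.5), and the promoter interval of MUC1 was the highest of its window in WT 3 and CREBBP-KO 2. The highest mean at MUC1 was at the shared peak of KRTCAP2 and TRIM46, at 94.9 to 97.35 (WT) and 95.2 to 97.3 (CREBBP-KO), and the peak of MTX1 and THBS3 lay on its other side (82.6 to 91.1 and 90.1 to 92.5). An overlapping protein-coding gene, ENSG00000273088, had a promoter peak in CREBBP-KO 2 alone (14.6).

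**Figure D3:**
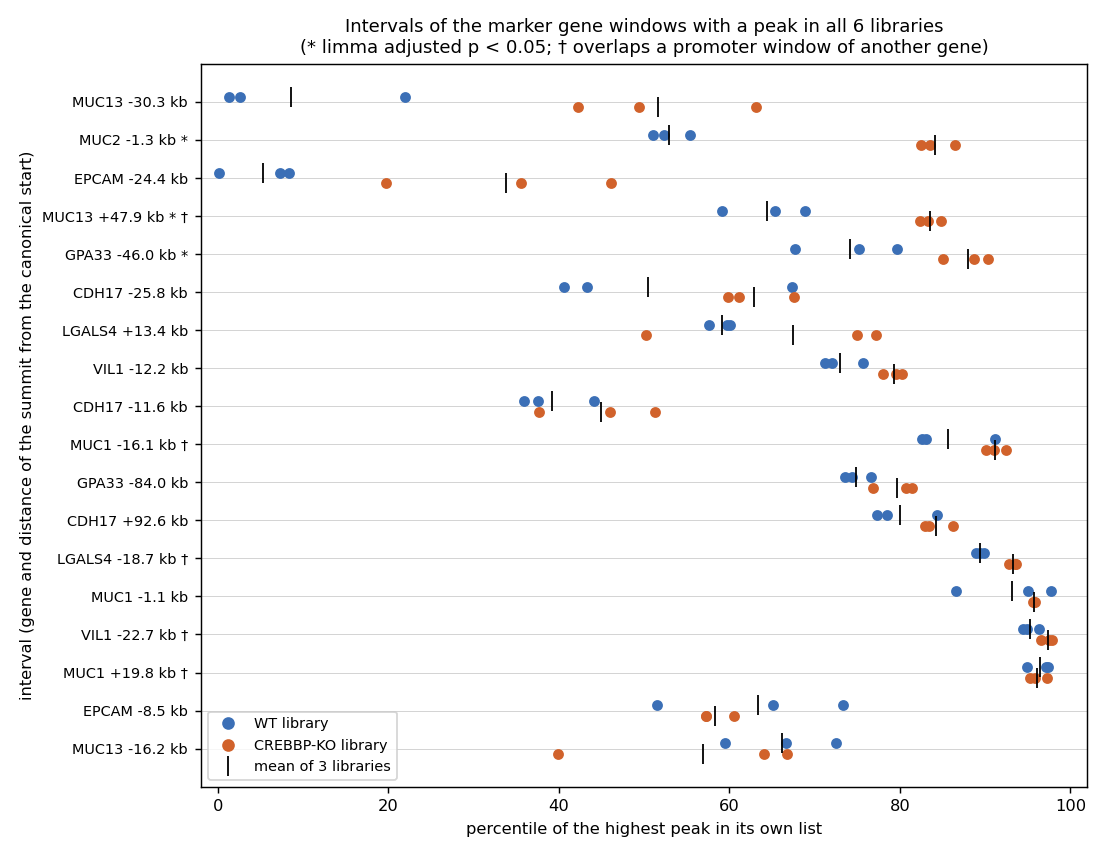
The intervals of the 10 windows with a peak in all 6 libraries, apart from 1 in the EPCAM window, ordered by the difference between genotypes, with the percentile of the highest peak in each library as a point and the mean of 3 libraries as a bar. The MUC13, MUC2 and EPCAM intervals at the top are separated between genotypes, and the MUC1 intervals lie near the right edge in both.

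The planned rank-shift test used the fold filter of the methods. The alternative without that filter is given first, for the 19 intervals that all 6 lists shared. At an adjusted p under 0.05 by limma, 4 of the 19 were higher in CREBBP-KO, at MUC2, at GPA33, at ITGB5 beside MUC13 and 30.3 kb upstream of MUC13, and 0 were lower. Over all 52187 such intervals 12.5% were higher and 12.1% were lower. Every library has the same set of scores on this scale, so shifts up and down cancel over all intervals by construction. Shares of higher and lower intervals over the genome therefore do not measure a net gain or loss. The filter of the methods, a fold of at least 5 in all 3 libraries of a genotype, left 13 of the 19, of which the first 3 named were higher and 0 were lower. Over all 34864 intervals past this filter 18.6% were higher and 18.7% were lower. The MUC2 interval passed this filter through CREBBP-KO alone, and the interval within MUC13 passed it through WT alone. When these 13 were ranked by −log10 p in place of fold, 2 were lower, of which 1 lay within MUC13.

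Other differentiation genes were sparsely marked at their promoters too. Of 26 other colonocyte genes, 5 had a promoter peak in all 6 libraries (CDHR2, PLAC8, ANPEP, DPP4 and EZR) and 20 had none in any. All 5 were higher in CREBBP-KO without overlap, as were 45.0% of all promoters with a peak in 6 libraries. The peptidases ANPEP and DPP4 stood at 83.1 ± 2.12 and 82.1 ± 3.45 in WT and at 86.2 ± 0.0601 and 88.02 ± 2.26 in CREBBP-KO (SD, n = 3 each). EZR, which encodes the microvillar linker ezrin, stood at 74.7 ± 6.93 and 90.1 ± 1.99, and CDHR2, a cadherin of the brush border, at 45.6 ± 6.58 and 64.9 ± 5.99. Of 22 other goblet genes, 2 had a promoter peak in all libraries and 20 had none, among them TFF3, SPDEF and ATOH1. The 2 were CREB3L1, a stress-response transcription factor that ranged from 98.9 to 99.6 (WT) and from 98.4 to 99.2 (CREBBP-KO), and the channel gene BEST2 (29.1 to 57.5 and 30.6 to 65.95).

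The label of the cells was set against markers of cell type. Of 14 general epithelial genes, 4 had a promoter peak in all libraries (KRT8, ESRP2, CLDN7 and OCLN) and 9 had none, including CDH1, which encodes the epithelial cadherin, KRT19 and GRHL2. The junction gene OCLN stood at 97.0 ± 1.498 in WT and 96.0 ± 1.15 in CREBBP-KO, ESRP2, a splicing regulator of epithelia, at 88.4 ± 1.35 and 93.6 ± 1.80, CLDN7 at 82.2 ± 2.22 and 84.1 ± 2.74, and KRT8 at 48.0 ± 13.2 and 67.9 ± 7.36 (SD, n = 3 each). Of 12 intestinal transcription factors, 4 had a promoter peak in all libraries and 7 had none, CDX1, CDX2 and HNF4A among them. HNF4G stood at 92.3 ± 1.03 and 95.8 ± 1.27, and KLF5 at 89.9 ± 6.95 and 93.8 ± 0.648. GATA6, named after its values were seen, had a peak in 0 of 3 WT and 3 of 3 CREBBP-KO libraries (65.8, 75.8 and 68.3). All 14 mesenchymal genes, in contrast, had a promoter peak in every library, with a median WT percentile of 96.3, against 87.4 over all promoters with such peaks. Of the 14, 9 were higher in CREBBP-KO without overlap, beside the 45.0% of all promoters. SPARC, COL3A1 and FN1, which encode matrix proteins, stood at 99.1, 98.8 and 98.6 on average in WT and at 99.25, 99.6 and 99.85 in CREBBP-KO. SNAI2 stood at 90.5 ± 4.90 and 96.7 ± 0.672 and N-cadherin (CDH2) at 59.0 ± 6.13 and 77.4 ± 3.71. Of 10 markers of immune, endothelial, neuroendocrine and glial cells, 1 (CD14) had a promoter peak in all libraries, at 8.22 to 45.5 (WT) and 47.1 to 65.85 (CREBBP-KO), and 6 had none. The other 3 had one in some libraries. Among them the endothelial marker PECAM1, also named after its values were seen, had the pattern of GATA6. Its peak was present in 0 of 3 WT and 3 of 3 CREBBP-KO libraries (12.5, 39.6 and 15.9). The epithelial label was thus met by part of the epithelial list and not by CDH1, while the whole mesenchymal list was marked. Their part in the results at the 10 genes was not tested.

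**Figure D4:**
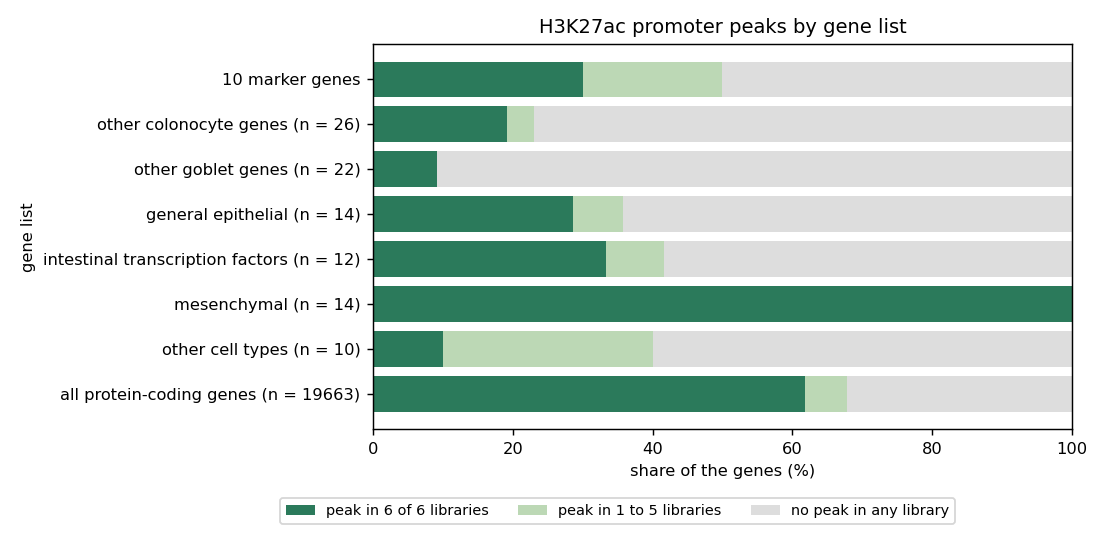
Share of the genes of each list, in percent, with a peak within 1 kb of a protein-coding start in 6 of 6 libraries, in 1 to 5 libraries and in none. The 14 mesenchymal genes all have a peak in every library, whereas 20 of the 22 other goblet genes have none in any library.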

How the data were processed

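H3K27ac ChIP-seq peak lists of 3 WT and 3 CREBBP-KO libraries were used, and the input libraries were not analysed here. According to the labels and methods, the authors aligned reads to hg38 with BWA in the nf-core ChIP-seq pipeline (version 2.0.0) and called narrow peaks with MACS2, 1 deposited list per library. The deposited fold is a linear ratio over local background, and the deposited significance is −log10 p and −log10 q. The summit offset was used for positions and the score was not used. Reads were downsampled at some stage, and whether the lists precede this step is not given in the sources used here, nor is the control input.

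Peaks were placed on GENCODE release 44. Percentiles, peak numbers and covered lengths were tested by two-sided exact permutation over libraries. Peaks overlapping or touching were merged, and intervals with a fold of at least 5 in all 3 libraries of a genotype (the filter in the methods) and a peak in all 6 were fitted with limma (lmFit, eBayes with trend) on normal scores of ranks, as CREBBP-KO less WT, with p-values adjusted by Benjamini-Hochberg. The code was tested on simulated data. DiffBind needs reads and was not repeated.

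The 10 genes, the marker lists and the tests were chosen with earlier results of these data known. Text names the 10 genes, neighbours with a promoter peak in a window, the strongest, shifted and genotype-restricted intervals, and of each list the 3 highest WT promoters and the 2 largest differences without overlap; further intervals and genes were named after their values were seen. Some items that this rule covers are not reported here, and counts over lists and windows include them. Promoters were shown for genes with the highest WT percentile that had a RefSeq entry, and for 1 without a peak. Alternatives concerned window size, start sites, filters, ranking, list length, model and libraries left out. Computation used bedtools 2.31.1, R 4.3.3 with limma 3.58.1, and Python 3.11.15 with pandas 2.3.3, numpy 2.4.6, matplotlib 3.10.9 and scipy 1.17.1.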

Additional observations from a re-analysis of the deposited data

How the results depend on the processing

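Absence of a peak means that none passed the threshold of the list, and the depth of each library is unknown. The number of peaks in the windows was higher in CREBBP-KO under every alternative run, by 4.67 peaks for gene bodies alone, 6.33 and 17.3 for flanks of 10 and 50 kb, 4.33 at a −log10 q of at least 5, 0.667 at a fold of at least 5 and 3.67 for lists of equal length, and by 6.5 to 8.5 with a library left out, against 7.67. Genes with a promoter peak in all 6 libraries numbered 3 and ranged from 1 to 4. At a fold of at least 5 there was 1 (MUC1) and 8 had none in any library. With the summit required to lie in the window there was 1 (EPCAM). With canonical starts only, chosen after seeing the data, 8 had none. Intervals higher in CREBBP-KO numbered 3, and 1 at a fold of at least 10 or within gene bodies, and 2 to 4 with a library left out. Intervals lower in CREBBP-KO numbered 0, but 2 when ranked by −log10 p, 1 with flanks of 50 kb and 0 to 1 with a library left out (1 without WT 3, 8.503 kb upstream of EPCAM, and 1 without CREBBP-KO 3, in MUC13). The EPCAM and MUC13 intervals passed the fold filter there through WT libraries alone, where they were higher, so that their difference decided that they were tested. With WT 3 included the EPCAM interval failed the filter. Without intervals at promoters of other genes, also chosen after seeing the data, 2 were higher. Intervals in CREBBP-KO only numbered 2, and 1 within gene bodies, at a −log10 q of at least 5 or for lists of equal length, and 6 with flanks of 50 kb; those in WT only remained 2 in number. The MUC1 promoter difference of 2.61 percentile points turned to -0.67 without WT 2 and reached 4.93 without WT 3. Over all intervals 6472 were higher and 6533 lower, and 3426 and 3295 at a fold of at least 10, where fewer were tested; ranked by −log10 p the counts were 4329 and 4498. The other causes were not tested.

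The replicate numbers did not pair the libraries. Same-numbered deviations correlated at 0.0108, 0.0144 and 0.0284, and not every library correlated best with its own number. With the replicate block the mean difference in peaks was 7.67, and 3 intervals were higher and 0 lower, so it changed no call.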
